A study of Mus musculus with 4 samples.

Results

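The genes described here encode the enzymes that add or remove acetyl and methyl groups on histone lysines and that carry a family symbol: the lysine demethylases (Kdm), lysine methyltransferases (Kmt), lysine acetyltransferases (Kat), histone deacetylases (Hdac) and sirtuins (Sirt). Membership was decided by symbol alone, as every protein-coding gene with a curated RefSeq transcript in the mouse build mm10 whose symbol is one of these 5 stems followed directly by a digit. The rule found 52 genes, of which 51 lie on the 20 chromosomes that the peak lists cover, among 20923 protein-coding genes on those chromosomes. The exception was Kdm5d, an H3K4 demethylase gene on chromosome Y, where neither list has a peak. The symbols were set against the known functions of their proteins. By symbol, the 51 genes comprise 17 demethylase, 8 methyltransferase, 8 acetyltransferase and 18 deacetylase genes, 7 of the last being sirtuins. Not all of the proteins work on histones. Hdac6 acts on tubulin, Hdac10 on polyamines, and Sirt3, Sirt4 and Sirt5 reside in mitochondria.

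The samples were alveolar macrophages (AMs), the phagocytes that live on the inner surface of the alveoli, taken by bronchoalveolar lavage and cell sorting from wild-type C57BL/6J mice of 9 weeks. SMAD4 binding was profiled by HT-ChIPmentation, in which chromatin is immunoprecipitated and the sequencing adapters are inserted by a transposase on the beads, in 2 SMAD4 libraries with 2 input libraries as controls. There was 1 genotype and 1 condition, and a peak list for each SMAD4 library. The labels do not say whether the libraries came from separate mice, so the spread between replicates may be technical.

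SMAD4 is the common partner of the receptor-activated SMAD proteins, which carry TGFβ and BMP signals from the cell surface to chromatin. SMAD complexes bind DNA weakly on their own and are known to act with other DNA-binding factors and with histone-modifying coregulators, including acetyltransferases and deacetylases of the families listed above. Acetylation of histone tails by Kat enzymes is associated with open chromatin and is reversed by Hdac enzymes and sirtuins. Methylation has different meanings at different lysines: H3K4 and H3K36 methylation accompany active genes, whereas trimethylation of H3K9, H3K27 and H4K20 accompanies silent ones. Binding near a gene measures neither its transcription nor the activity of its product.

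Replicate 1 had 16369 peaks and replicate 2 had 19015, with a q of at most 0.0434 and 0.0467. Fold enrichment is the number of fragments stacked at the summit plus 1, over the control level plus 1, and its median over peaks was 5.52 in replicate 1 and 6.77 in replicate 2. The summit fragments behind these folds were few, with a median of 17 and 14 and a lowest value of 9 and 7, which limits what could be detected. Wherever a peak of replicate 1 and a peak of replicate 2 had at least 1 bp in common, they were joined into a shared region, which gave 10964 regions, and 87.2% of them had the higher fold in replicate 2. Genes of AMs and of other lineages were also read, on lists chosen with earlier results of these data known, which therefore cannot check the cell type. A shared region had the transcription start site (TSS) nearest for 9 of 10 AM genes (Siglecf, Itgax, Marco, Pparg, Chil3, Car4, Mertk, Krt79 and Cidec, but not Fabp4). So it had for 2 of 10 genes of other lineages, Ncr1 and Pdgfrb, against 21.5% of all protein-coding genes. By the smaller fold of both replicates, the Pdgfrb region (folds of 16.6 and 27.1) ranked 735. The best regions of Chil3, Pparg and Car4 ranked ahead of it, and those of the other AM genes behind it.

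The sequences under the summits that carry the account below are shown first, as the plus strand of mm10, read 5′ to 3′ and 100 bp to each side of the summit. Capitals mark matches on either strand to 1 of 12 consensus strings. The windows are the strongest region in Hdac4 (chr1:92048490-92048690, intron), the strongest region in Kdm4c (chr4:74305779-74305979, intron), the region upstream of Kdm4c (chr4:74201492-74201692, in an intron of Frmd3), the region upstream of Kdm2a (chr19:4409189-4409389, intergenic), the Kat7 promoter (chr11:95310247-95310411, with 36 bases of exon left out) and an intron of Mafg close to Sirt7 (chr11:120630542-120630742).
Hdac4 intron: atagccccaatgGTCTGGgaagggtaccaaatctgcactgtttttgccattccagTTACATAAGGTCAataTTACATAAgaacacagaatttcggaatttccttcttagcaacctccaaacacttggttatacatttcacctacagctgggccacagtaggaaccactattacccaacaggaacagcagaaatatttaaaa
Kdm4c intron: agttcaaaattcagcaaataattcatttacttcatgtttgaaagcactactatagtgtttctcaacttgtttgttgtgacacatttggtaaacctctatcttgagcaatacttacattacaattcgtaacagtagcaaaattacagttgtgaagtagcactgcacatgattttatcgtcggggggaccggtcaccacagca
Kdm4c upstream: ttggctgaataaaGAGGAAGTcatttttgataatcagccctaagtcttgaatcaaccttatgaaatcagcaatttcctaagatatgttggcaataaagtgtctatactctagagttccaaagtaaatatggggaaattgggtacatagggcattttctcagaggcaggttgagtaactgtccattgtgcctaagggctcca
Kdm2a upstream: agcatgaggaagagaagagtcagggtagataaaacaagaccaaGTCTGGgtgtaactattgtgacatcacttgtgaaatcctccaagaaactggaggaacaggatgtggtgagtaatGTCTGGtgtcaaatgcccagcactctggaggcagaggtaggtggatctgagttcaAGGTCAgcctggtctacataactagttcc
Kat7 promoter: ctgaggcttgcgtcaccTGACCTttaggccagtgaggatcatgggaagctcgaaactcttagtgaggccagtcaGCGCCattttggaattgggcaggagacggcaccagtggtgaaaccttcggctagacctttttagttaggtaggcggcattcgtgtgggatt
Mafg intron near Sirt7: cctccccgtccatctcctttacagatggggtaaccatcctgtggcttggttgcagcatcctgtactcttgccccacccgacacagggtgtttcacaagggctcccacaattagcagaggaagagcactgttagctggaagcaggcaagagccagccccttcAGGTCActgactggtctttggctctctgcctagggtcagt

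A shared region had the TSS of an enzyme gene nearest in 14 of the 51 genes, or 27.5%, against 21.5% of all protein-coding genes. These 14 genes had 33 such regions. Within 50 kb of a TSS, whatever gene was nearest, 23 of the 51 genes (45.1%) had a shared region, against 37.5% of all protein-coding genes. The shares of the enzyme genes were thus near those of all genes. In replicate 1 alone, 14 enzyme genes (27.5%) had a peak nearest, against a background of 27.2%. In replicate 2 alone the number was 21 (41.2%), against 31.2%. There was 1 condition and the genes were not chosen independently of the data, so these shares are descriptions and were not tested.

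**Figure D1:**
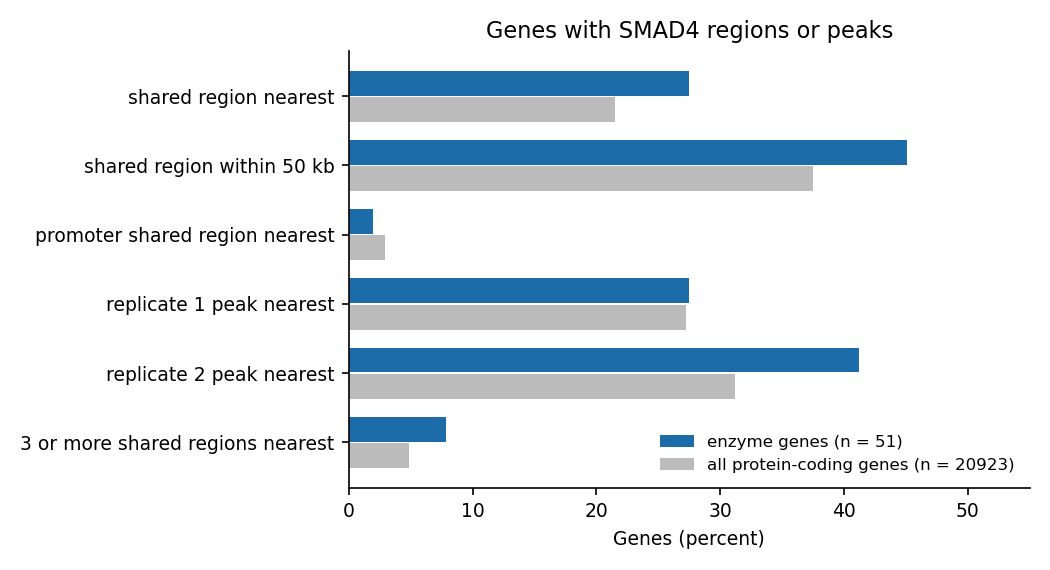
Percent of the 51 enzyme genes (blue) and of 20923 protein-coding genes (grey) with a shared region, a promoter region or a peak of 1 replicate, as named at each pair of bars. The widest gap, 41.2% against 31.2%, was in the peaks of replicate 2, and for promoter regions the enzyme genes stood lower, at 1.96% against 2.92%.

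Gene length moved with these shares. The enzyme genes had a median length of 39.5 kb, against 16.8 kb for all protein-coding genes, and those with a shared region nearest had a median of 70.0 kb, against 37.9 kb for those without. Among all protein-coding genes, a shared region was nearest to 11.5% of genes under 10 kb, 22.4% of those of 10 to 50 kb, 35.0% of those of 50 to 100 kb and 37.6% of longer ones. The enzyme genes in the same classes numbered 2 of 7, 4 of 23, 3 of 12 and 5 of 9. In the middle classes the enzyme genes lay below the share of all genes, at 17.4% and 25%, and in the shortest and the longest above it, at 28.6% and 55.6%. The part of gene length in the overall share was not tested.

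The 33 regions were spread unevenly over the genes. Hdac4 had 8, Kdm7a 5, and Kdm4c and Kmt2e 3 each. Kat2b, Kat6b, Kmt5a and Sirt4 had 2, and Hdac9, Hdac10, Kat7, Kdm2a, Kdm5c and Sirt1 had 1. Some of these counts rested on the definition of a shared region: with summits within 100 bp of each other Kdm7a had 2 and Hdac4 7, and with an overlap of 50% of both peaks Kmt2e had 1 and Hdac4 8. When regions were counted in the gene and 10 kb around it, whatever TSS was nearest, Hdac4 had 9, Kmt2e 3, Kdm7a and Kdm4c 1 each, and Kdm2a and Kdm5c 0. The 4 genes with 3 or more regions were 7.84% of the 51, against 4.85% of all protein-coding genes, and held 19 of the 33 regions. At least 8 regions, the number at Hdac4, were found at 0.444% of protein-coding genes. By class of enzyme, a shared region was nearest to 4 of 17 demethylase genes (10 regions), 2 of 8 methyltransferase genes (5), 3 of 8 acetyltransferase genes (5) and 5 of 18 deacetylase genes (13).

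**Figure D2:**
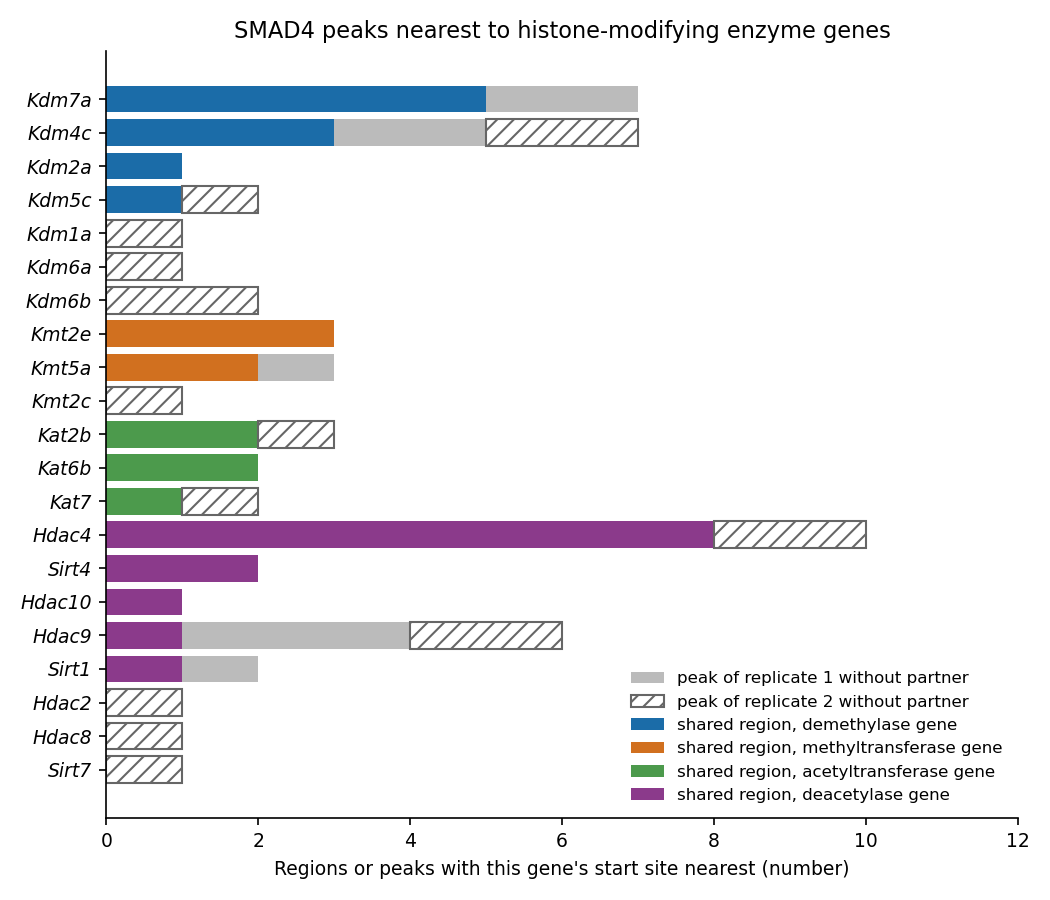
Number of shared regions (coloured by class of enzyme) and of peaks without a partner in the other list (grey, replicate 1, and hatched, replicate 2) with each gene's TSS nearest, for the 21 genes with any. Hdac4 leads with 8 shared regions, and 7 genes have peaks of replicate 2 only. The share of all protein-coding genes with peaks of replicate 2 only was not counted.

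Binding was mostly away from promoters. Of the 33 regions, 22 had their summit in an intron, 10 were intergenic and 1 lay in a promoter, taken as 1 kb upstream to 100 bp downstream of a TSS, and none lay in an exon or at a gene's end. Over all shared regions 49.3% were intronic, 40.5% intergenic and 6.42% in promoters. The enzyme gene itself held 16 of the 33 regions, another gene held 6, and 11 lay outside any gene. The median distance to the TSS was 30070 bp, against 18041 bp over all shared regions. More than 50 kb away lay 12 regions (36.4%), against 23.1% of all shared regions. Hdac4 weighed heavily in this number, since only 1 of its 8 regions lay within 50 kb of its TSS. Upstream of the TSS lay 17 of the 33 regions, against 43.8% of all shared regions.

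**Figure D3:**
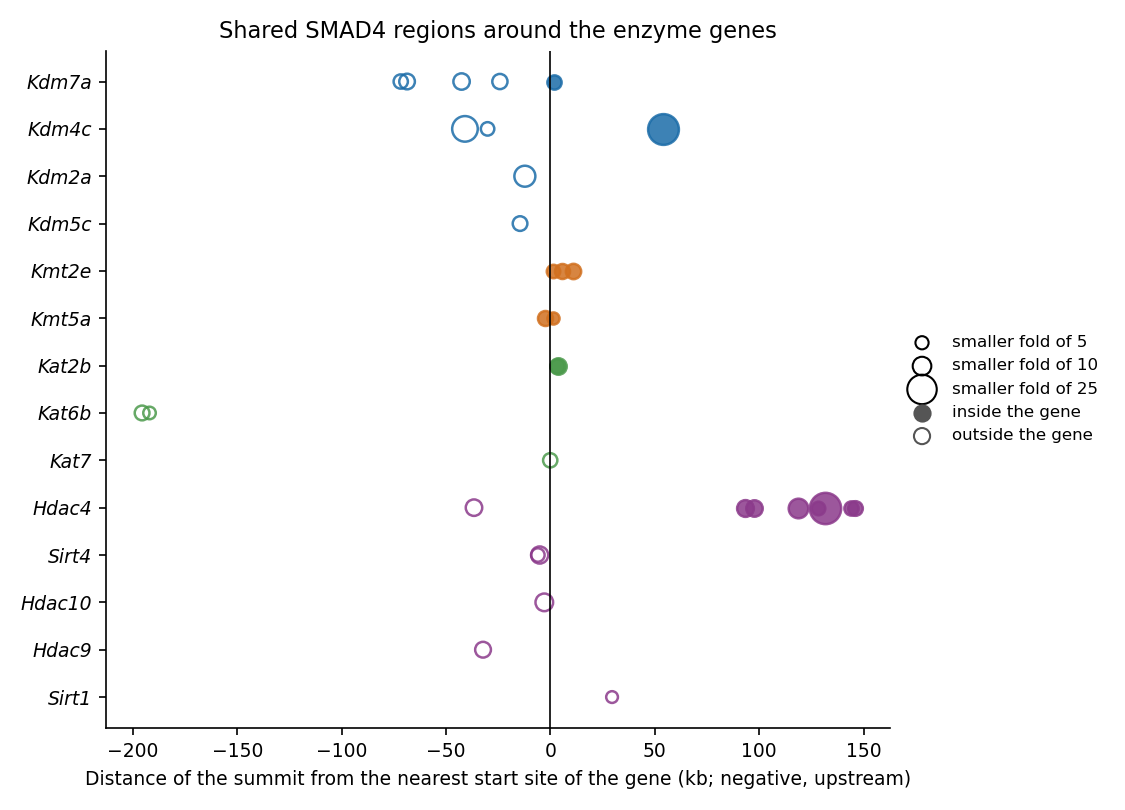
Position of the 33 shared regions relative to the nearest TSS of the enzyme gene (horizontal axis, kb, negative upstream), 1 row per gene, with circle area proportional to the smaller fold enrichment of both replicates and filled circles for summits inside the gene. The largest circles are in introns of Hdac4 and Kdm4c, far downstream of the TSS, and only Kat7 has a circle in a promoter.

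The 33 regions were of ordinary strength among shared regions. Their median fold was 6.50 in replicate 1 and 9.93 in replicate 2, against 6.82 and 9.48 over all shared regions, and their median number of summit fragments was 21 and 21, against 20 and 21. Ranked by the smaller fold of both replicates, 5 lay in the strongest 25% of shared regions, 13 and 12 in the next classes of the same size and 3 in the weakest 25%. In the top 5% lay 3 regions, 1 in Hdac4 and 2 at Kdm4c. The fold was higher in replicate 2 in 28 of the 33, and in these the smaller fold used for the rank was that of replicate 1. The usual control level, which enters the fold, was 2.08 fragments in replicate 1 and 1.22 in replicate 2. Median width was 443 bp (440 bp over all) and median GC content of the windows 42.3% (43.8% over all).

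**Figure D4:**
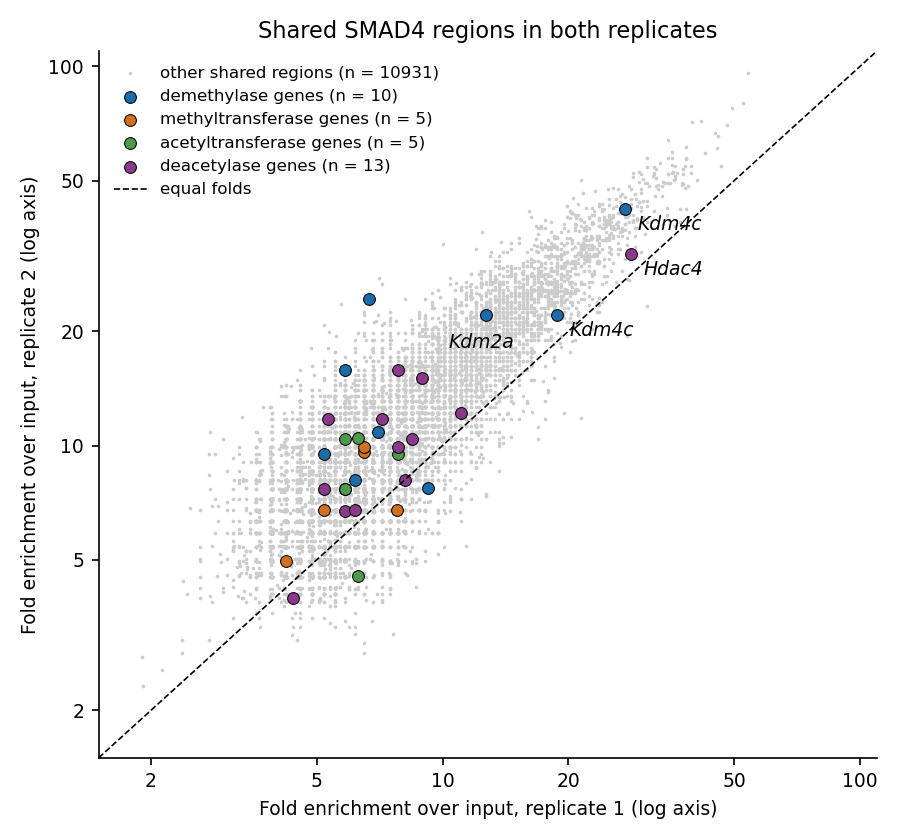
Fold enrichment of each shared region in replicate 1 (horizontal) and replicate 2 (vertical), both on log axes, with the 33 regions nearest to enzyme genes coloured by class and the other 10931 in grey. Most coloured points lie above the line of equal folds, as the grey ones do, and the Hdac4 and Kdm4c introns stand at the upper end, at 28.3 and 27.3 in replicate 1.

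Among the deacetylases, the class IIa enzymes shuttle between cytoplasm and nucleus in response to signals and repress MEF2 and other factors. They had 9 of the 13 deacetylase regions, all at Hdac4 and Hdac9, and none at Hdac5 or Hdac7. Hdac4 lies on the minus strand at chr1:91928779-92180341 and has 26 introns in NM_207225.2. Its strongest region, in intron 3 (chr1:92048139-92049251, 131751 bp downstream of the TSS), had a fold of 28.3 in replicate 1 and 32.04 in replicate 2, from 86 and 70 fragments. Its q was 5.41e-101 and 2.13e-92, and it ranked 107 of the 10964 shared regions. By the smaller fold of both replicates it led the regions nearest to enzyme genes, while the Kdm4c intron described below had the higher fold in replicate 2.

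The other Hdac4 regions had lower folds in both replicates. In intron 2, 118397 bp from the TSS, a region at chr1:92061530-92062121 had folds of 11.0 and 12.2, from 33 and 26 fragments (q = 1.98e-25 and 2.17e-23). A further pair in the same intron, at chr1:92087006-92087330 and chr1:92082551-92083205, had folds of 8.12 and 8.12 (q = 2.62e-15 and 3.04e-12) and of 7.80 and 9.93 (q = 2.90e-14 and 5.36e-17). In intron 3, 3 further regions had folds of 5.32 to 6.17 in replicate 1 and of 6.70 to 11.7 in replicate 2. The 8th region lay 36581 bp upstream of the gene (chr1:92216627-92217261), with folds of 7.80 and 15.8 from 23 and 34 fragments (q = 2.90e-14 and 1.90e-34). The gene also held shared regions in intron 11 and in an exon, with folds of 6.26 and 7.22 and of 7.80 and 8.57, that the nearest-TSS rule gave to Twist2, 182512 and 183305 bp away.

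Hdac9 is the longest of the 14 genes, at 869.5 kb. Its shared region lay 32248 bp upstream of the TSS, with folds of 7.15 and 11.7 from 21 and 27 fragments. Inside the gene there was also a shared region in intron 23 that was nearest to Twist1, 238014 bp away, with folds of 4.77 and 3.77. A further 3 peaks of replicate 1 and 2 of replicate 2 in its introns had no partner in the other list. Hdac10, a class IIb enzyme, had a region 2905 bp upstream, inside an intron of its neighbour Mapk12 (chr15:89131358-89131724), with folds of 8.95 and 15.1 from 29 and 35 fragments (q = 2.42e-19 and 6.08e-34). Hdac6, the tubulin deacetylase, and Hdac11, the class IV enzyme, had no peak nearest or within 50 kb in either list.

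The class I deacetylases are mainly nuclear, and Hdac1, Hdac2 and Hdac3 are the catalytic subunits of large corepressor complexes. None of Hdac1, Hdac2, Hdac3 and Hdac8 had a shared region nearest. Hdac3, which works in the NCoR complexes, had 3 shared regions within 50 kb, all in introns of Diaph1 and between 25375 and 30543 bp downstream of its TSS. The strongest had folds of 6.17 and 9.48. Hdac2 and Hdac8 had 1 peak each in replicate 2 alone, with folds of 4.60 and 4.96 and 10 fragments at either summit. Hdac1 had none.

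Sirtuins are deacetylases and deacylases that consume NAD. Shared regions were nearest to 2 of the 7 genes. Sirt4, a mitochondrial enzyme, had a pair of neighbouring regions 5124 and 5977 bp upstream. The first (chr5:115489364-115490067) had folds of 8.45 and 10.4 from 25 and 22 fragments (q = 2.27e-16 and 3.09e-18), and the second had folds of 5.20 and 7.67. Sirt1, a nuclear deacetylase of histones and transcription factors, had a region in an intron of Herc4, 29550 bp downstream of its TSS, with folds of 4.38 and 3.97. This was the last of the 33 by the smaller fold, and it was lost at a minimum fold of 5 in both replicates. Its control level was raised in both replicates, at 4.70 and 2.78 fragments against usual levels of 2.08 and 1.22, and its window had a GC content of 22.4%, the lowest of the 33. Sirt7, a nucleolar enzyme, had only a peak of replicate 2 nearest, with a fold of 5.87. Within 50 kb of its TSS, however, lay the strongest region found near any enzyme gene with another gene nearest, in an intron of Mafg (chr11:120630245-120631042). Mafg encodes a small MAF protein, a partner of NRF2 and BACH factors. The folds were 21.1 and 43.3, from 64 and 95 fragments, at 5628 bp from the Sirt7 TSS, and the region ranked 354. Sirt2 had a shared region within 50 kb at the promoter of Hnrnpl, with folds of 4.55 and 8.57. Sirt3, Sirt5 and Sirt6 had none.

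Among the demethylases, the Kdm4 enzymes remove methyl groups from H3K9 and H3K36. All 3 shared regions of the family were at Kdm4c, and 2 of these were among the strongest near any enzyme gene. The stronger lay in intron 5 of 21 (NM_001172095.1), 54000 bp downstream of the nearest TSS (chr4:74305551-74306303). Its folds were 27.3 and 42.0 from 83 and 92 fragments, with q of 3.19e-96 and 4.08e-132, at rank 122. The second lay 40905 bp upstream in an intron of Frmd3 (chr4:74201270-74201857), with folds of 18.8 and 22.1 from 57 and 48 fragments (q = 5.00e-57 and 1.17e-55) and rank 495. The remaining region, 30070 bp upstream, had folds of 5.20 and 9.48. Kdm4c had another 2 peaks without a partner in each list. Kdm4a had peaks of replicate 2 within 50 kb, in its own exons but nearest to St3gal3, with folds of 7.22 and 4.51. Kdm4b and Kdm4d had none.

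Kdm7a, a demethylase of H3K9 and H3K27, had 5 shared regions, 4 of them upstream and outside any gene, between 24169 and 71667 bp from the TSS. The region at chr6:39249086-39249594 had folds of 9.25 and 7.71 from 30 and 21 fragments (q = 1.98e-20 and 2.16e-13), and was 1 of the 5 regions with the lower fold in replicate 2. The replicates disagreed most at the region 24169 bp upstream (chr6:39230645-39231238), with folds of 6.66 and 24.4. The summit fragments there were 37 and 53, while the control level was 4.70 in replicate 1 and 1.22 in replicate 2, so that the gap was wider in fold than in fragments. At 71667 bp the folds were 5.85 and 15.8, and at 68634 bp 7.01 and 10.9. The region inside the gene, in intron 1 and 1530 bp from the TSS, had folds of 5.85 and 7.67.

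Kdm2a, an H3K36 demethylase that binds CpG islands, had an intergenic region 12212 bp upstream (chr19:4409031-4409537). Its folds were 12.7 and 22.1 from 38 and 48 fragments, with q of 1.57e-31 and 1.17e-55, at rank 1442. Kdm5c, an X-linked H3K4 demethylase, had a region 14518 bp upstream in an intron of Iqsec2, with folds of 6.17 and 8.12. Its relative Kdm5a had 2 shared regions within 50 kb, at the promoter and in an intron of Ccdc77, with folds of 4.87 and 11.7 and of 7.15 and 4.22. The H3K27 demethylases Kdm6a and Kdm6b, the second of which is induced by inflammatory signals in macrophages, had peaks of replicate 2 alone. Those at Kdm6b lay in an intron, with a fold of 4.06, and 2730 bp upstream, with a fold of 5.87. The H3K4 demethylase Kdm1a had 1 peak of replicate 2, in an intron, with a fold of 4.24 over a control level of 3.24. The H3K9 demethylase Kdm3b had a shared region 18271 bp upstream at the promoter of Fam53c, with folds of 9.42 and 13.1. Kdm2b had a peak within 50 kb in replicate 1 alone, and Kdm1b, Kdm3a, Kdm5b and Kdm8 had none.

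Of the genes with a Kmt symbol, Kmt2e, which encodes MLL5, had 3 shared regions, all in intron 1 of 25. The strongest, 10694 bp from the TSS (chr5:23445027-23445523), had folds of 7.76 and 6.77 from 25 and 14 fragments (q = 3.78e-15 and 6.20e-09). Those at 5620 and 1162 bp had folds of 6.50 and 9.63 and of 5.20 and 6.77. The count at Kmt2e depended on the treatment of a neighbouring noncoding gene, 5031425E22Rik. Its TSS was nearest to 5 more shared regions within 50 kb upstream of Kmt2e, with folds of up to 12.02 and 18.5. When TSSs of protein-coding transcripts alone were considered, Kmt2e had 9 regions and passed Hdac4, whose count remained at 8.

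The other Kmt2 genes encode H3K4 methyltransferases. Kmt2a had a shared region within 50 kb at the Atp5l promoter (folds of 5.85 and 7.67), and Kmt2c had 1 peak of replicate 2, 101791 bp from its TSS, with a fold of 4.06. Kmt2b and Kmt2d had only unpartnered peaks within 50 kb. Kmt5a, the H4K20 monomethyltransferase, had 2 shared regions in its first 2 introns, 2727 bp upstream and 1315 bp downstream of the nearest of its TSSs, with folds of 6.50 and 9.93 and of 4.22 and 4.96. A stronger region, in an intron of Rilpl2 and 21284 bp from a Kmt5a TSS, had folds of 11.7 and 16.7. For Kmt5c, the H4K20 enzyme for the higher methylation states, 3 shared regions lay within 50 kb, the strongest in an exon of Tmem150b with folds of 11.0 and 15.8. Kmt5b had only a peak within 50 kb in replicate 2 alone, with 1810055G02Rik nearest and a fold of 4.51.

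Among the acetyltransferases, Kat2b (PCAF), a known coactivator of SMAD proteins, had 2 regions in its first intron. They lay 3539 and 3141 bp downstream of separate TSSs, with folds of 7.80 and 9.48 at the first (chr17:53570361-53570706, q = 2.90e-14 and 8.93e-16) and of 5.85 and 10.4 at the second. Its paralog Kat2a (GCN5) had shared regions within 50 kb at the Rab5c promoter and in an exon of Dhx58, with folds of 5.20 and 12.2 and of 4.87 and 6.77. Kat6b, a MYST enzyme, had a pair of regions in introns of Adk, 195555 and 191994 bp upstream, the farthest of the 33, with folds of 6.26 and 10.5 and of 6.26 and 4.53. A region in its own intron 12 had folds of 7.80 and 9.02 but was nearest to Dupd1.

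Kat7 (HBO1), the acetyltransferase of H3K14 and H4, was the only enzyme gene with a promoter region nearest, or 1.96% of the 51 against 2.92% of protein-coding genes. The region (chr11:95310182-95310514), 65 bp upstream of its TSS, had folds of 5.85 and 7.67 from 17 and 16 fragments (q = 2.02e-08 and 4.11e-11). The promoter is shared with the divergent noncoding gene Gm11520. The summit of replicate 1 was 38 bp upstream of Kat7, while that of replicate 2 was nearest to Gm11520, 77 bp upstream of it. Replicate 2 alone also had a peak in an intron of Kat7, with a fold of 7.22, the highest of the unpartnered peaks nearest to enzyme genes. Kat5 (TIP60) had 4 shared regions within 50 kb, 3 nearest to Ap5b1 and 1 nearest to Rela, which encodes the NF-κB subunit p65. The strongest, 34053 bp from Kat5, had folds of 14.0 and 23.0 from 42 and 50 fragments. Kat8 (MOF) had a region in intron 6 of its own gene that was nearest to Prss8, with folds of 3.57 and 8.12. Kat6a and Kat14 had none.

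In all, 49 shared regions lay within 50 kb of a TSS of an enzyme gene, 6 of them in promoters. The enzyme gene was nearest to 21 of them. The other 28 had 1 of 17 other genes nearest and touched 14 enzyme genes, of which 10 (Hdac3, Kat2a, Kat5, Kat8, Kdm3b, Kdm5a, Kmt2a, Kmt5c, Sirt2 and Sirt7) had no shared region with their own TSS nearest. The matching shares over all protein-coding genes and all shared regions were not counted, so these numbers are not traits of the enzyme genes. The 5 promoters among the 28 were those of Fam53c, Atp5l, Rab5c, Ccdc77 and Hnrnpl. Besides those already named, regions near Kat7 (in Fam117a), Sirt4 (nearest to Pxn) and Kmt5c (at the end of Cox6b2) had folds of 4.55 to 5.20 in replicate 1 and of 8.79 to 11.7 in replicate 2.

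Of the peaks nearest to enzyme genes, 33 of 42 in replicate 1 (78.6%) and 33 of 50 in replicate 2 (66%) belonged to shared regions, against 69.4% and 59.2% of all peaks. The 9 unpartnered peaks of replicate 1 had folds of 3.57 to 4.87 from 12 to 19 fragments, and the 17 of replicate 2 had folds of 4.06 to 7.22 from 8 to 17. A peak nearest in replicate 2, with none in replicate 1, was found for 7 genes: Hdac2, Hdac8, Kdm1a, Kdm6a, Kdm6b, Kmt2c and Sirt7. Over all protein-coding genes, too, more had a peak nearest in replicate 2 (31.2%) than in replicate 1 (27.2%). The share of all genes with a peak nearest in replicate 2 only was not counted. With so few fragments, a missing partner says that binding was not detectable in the other library, not that it was absent. For 16 genes neither list had a peak nearest or within 50 kb: Hdac1, Hdac5, Hdac6, Hdac7, Hdac11, Kat6a, Kat14, Kdm1b, Kdm3a, Kdm4b, Kdm4d, Kdm5b, Kdm8, Sirt3, Sirt5 and Sirt6. The share of all protein-coding genes with no such peak was not counted, so this number is not a trait of the enzyme genes.

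The consensus strings in the windows shown above were searched in all shared regions, on both strands. The short SMAD element GTCTG was found in 8 of the 33 windows nearest to enzyme genes (24.2%) and in 38.8% of all windows. This gap depended on the window. With 50 bp on each side GTCTG was in 4 (12.1%, against 21.9%), and with 200 bp in 21 (63.6%, against 62.2%). GTCTGG, which contains it, was in 3 (11.2% of all windows), the palindrome GTCTAGAC in 0 (0.465%) and the GC-rich SMAD string GGCGC in 1 (5.24%). The C/EBP string (TT, then alternating purine and pyrimidine over 4 bases, then AA) was in 5 (23.6%), the PU.1 string GAGGAAGT in 1 (7.999%), and a C/EBP or PU.1 string in 6 windows, or 18.2% against 30.1%. AGGTCA, a core element of nuclear receptor sites, was in 8 (15.4%), and TGTGGTC or TGTGGTT, the RUNX string, in 7 (16.3%). The STAT5 string (TTC and GAA around a pyrimidine, any base and a purine) was in 3 (4.27%), the E-box CACGTG in 2 (3.65%), and TGACTCA or TGAGTCA (AP-1) and GTGGGAA (RBPJ) in 1 each (8.91% and 4.14%). These are counts over few windows, and a match is not evidence of a bound site.

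In the windows printed above, the Hdac4 intron held GTCTGG and 2 copies of TTACATAA, the first overlapping AGGTCA by 1 base. The Kdm2a window held GTCTGG at 2 places, 57 bp to the left and 17 bp to the right of the summit, and AGGTCA. In the window upstream of Kdm4c there was GAGGAAGT, 87 bp left of the summit, and in the Kdm4c intron, the region with the highest fold in replicate 2 among the 33, none of the 12 strings was found. The Kat7 promoter held AGGTCA and GGCGC, both on the minus strand. The Mafg intron held AGGTCA.

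Other genes of the same pathways were read from a list of readers, partners and enzymes without a family symbol. Of 65 such genes, 22 (33.8%) had a shared region nearest, against 21.5% of protein-coding genes, with 49 regions in all, 3 of them in promoters. Their lengths were not set against those of all genes. The histone methyltransferases outside the Kmt symbols numbered 6 of 21 (Nsd3, Setd1b, Setd2, Dot1l, Smyd3 and Prdm9), and Smyd3 had the strongest of their regions, with folds of 20.5 and 25.3. The Polycomb enzymes Ezh1 and Ezh2 had none. Of the arginine methyltransferases 2 of 7, Prmt3 and Prmt5, and of the other demethylases 4 of 7, Jmjd1c, Phf2, Phf8 and Riox1, had a region. For Prmt3, Prmt5 and Riox1 this included the promoter, at Riox1 with folds of 9.42 and 13.5. The nuclear receptor coactivators Ncoa1, Ncoa2 and Ncoa3 all had regions, at Ncoa2 with folds of up to 15.3 and 17.6, whereas Ep300 and Crebbp, the p300 and CBP acetyltransferases known as SMAD coactivators, had none nearest. Among 17 partners of deacetylases and demethylases, Tbl1x, Tbl1xr1, Sin3a and Rbbp4 had a region. Tbl1xr1, a subunit of the NCoR complexes that contain Hdac3, had 11, more than any enzyme gene, with the strongest at folds of 13.3 and 14.4. Jarid2, a Polycomb partner, had 4 regions, and Brd2, which encodes an acetyl-lysine reader, had 1.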

How the data were processed

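HT-ChIPmentation libraries of SMAD4 (2) and input (2) from AMs were described in the labels, and the peak lists of both SMAD4 libraries were analysed. The members and lists were chosen with earlier results of these data known.

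The authors trimmed the reads (Cutadapt), aligned them to mm10 (Bowtie2), removed duplicates and low-quality alignments (PICARD, samtools) and called peaks in each library with MACS3 at a q limit of 0.05 with input as control. Each deposited peak has a fold ratio over the control level, a −log10 p, a −log10 q and a score, which is the −log10 q multiplied and cut to a whole number. The score was not used further. Peaks are the authors' calls, and the q behind them belongs to the caller, not to a comparison of samples. No total read count was used. Summit fragments and control level were solved from fold and p, with a largest relative error of 5.17e-06. The procedures were tested on simulated data.

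Genes came from RefSeq on GRCm38, the assembly of mm10, with 45657 curated transcripts (26089 genes, noncoding ones included), and coordinates are 1-based. Overlapping peaks of the 2 libraries (minimum 1 bp) were merged into shared regions, each with the mean of both summits and the gene of the nearest TSS. Genes are described in full for the 12 regions with the largest smaller fold, for the strongest region of each gene with 3 or more, and for promoter regions. Since there was 1 condition with 2 replicates, no test was run, and counts stand beside those of all protein-coding genes or all shared regions. Alternatives were stricter overlap, q and fold limits, equal list lengths, protein-coding TSSs, other windows and each replicate alone. Results for 1 gene of the related list are not reported here. Python 3.11.15 was used, with the packages numpy, pandas, scipy and pysam.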

Additional observations from a re-analysis of the deposited data

How the results depend on the processing

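Of the 14 genes with a shared region nearest, 14 kept one when peaks had to overlap by 50% of both or to have summits within 100 bp, at a q of 0.01 or 0.001, and with protein-coding TSSs alone. At a minimum fold of 5, and with both lists at 16369 peaks, 13 kept one, and Sirt1 was lost. With each replicate alone the count was 14 to 21, that of regions or peaks nearest 42 to 50, that within 50 kb 58 to 80, promoter ones 0 to 1, and genes within 50 kb 25 to 30. The share of protein-coding genes with a region nearest was 21.5% in the main setting. It was 18.8% with an overlap of 50% and 18.7% with summits within 100 bp. At a q of 0.01 and 0.001 it was 21.4% and 20.9%, and with both lists at 16369 peaks 20.9%. With protein-coding TSSs alone it was 23.9%. It fell to 17.9% at a minimum fold of 5, and was 27.2% to 31.2% with 1 replicate alone. Windows of 25 and 100 kb gave 29 and 76 regions, and 25 kb gave 15 genes. The shares of all protein-coding genes at these windows were not counted. A promoter of 3 kb on either side held 6 regions. The median rank of the 33 regions was at 50.3% of the list by fold and at 46.0% by summit fragments. String matches, summed over strings, numbered 40, and 21 and 65 with 50 and 200 bp on each side of the summit. By gene, the gene-body rule (the gene and 10 kb around it) left Kdm2a and Kdm5c with 0 regions. For Kat6b it left out both regions in Adk and counted 1 other, in intron 12 of Kat6b, nearest to Dupd1. The same rule gave 1 region each to Hdac3, Kat2a, Kat8, Kmt2c, Kmt5c and Sirt7, and 2 to Kdm5a, which all had 0 by the nearest TSS. Summits within 100 bp left Kat2b, Kat6b, Kmt5a and Sirt4 with 1. With protein-coding TSSs alone, chosen after seeing the data, Kmt2e had 9 regions in place of 3. No paired analysis was possible because no test was run and only the SMAD4 libraries have peak lists. Depth limits the account to sites with at least 9 and 7 fragments at the summit.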
